A study of Homo sapiens with 20 samples.

Results

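The m6A peaks of 10 core nucleotide excision repair genes, ERCC1, ERCC2, ERCC3, ERCC4, ERCC5, ERCC6, XPA, XPC, DDB1 and DDB2, were examined in the MeRIP-seq peak lists of T24 and T24R2 cells. T24 is a human bladder cancer cell line that is sensitive to cisplatin. T24R2 is a resistant line made from it by serial exposure to cisplatin and kept in the drug, so the lines differ in both history and medium, and each is a single line. Both lines are labelled wild type, all cells were collected on day 3 of culture, and there were 5 immunoprecipitated (IP) libraries per line. In MeRIP-seq, an antibody that recognises N6-methyladenosine (m6A) captures RNA fragments carrying it, and a peak is a stretch where IP reads exceed those of the matched input RNA. A peak was counted for a gene when its summit, the position of highest enrichment, lay in an exon of that gene. By this rule 188 of 231465 peaks belonged to the 10 genes, 92 in T24 and 96 in T24R2. They fell into 28 of the 43676 regions made by merging the lists, and regions are numbered within each gene in order of hg38 coordinate. Each value below is a peak's fold enrichment expressed as its percentile within its own library's list, so that 50 is a middling peak of that library.

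Nucleotide excision repair removes bulky, helix-distorting lesions from DNA, including the adducts that cisplatin forms between neighbouring guanines. Lesions are found either by XPC and the DDB1-DDB2 complex across the genome or by ERCC6 where RNA polymerase stalls in a transcribed gene. The TFIIH helicases ERCC2 and ERCC3 then open the DNA, XPA checks the damage and organises the complex, and the nucleases ERCC5 and ERCC4-ERCC1 cut the damaged strand on either side. ERCC1 is also much studied as a marker of response to platinum drugs. m6A is written on adenosines within the consensus DRACH, in which D stands for any base but C, R for a purine and H for any base but G, most often in long internal exons and around stop codons, and reader proteins that bind it can alter the stability and translation of the mRNA.

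The adenosine context under the peaks is shown for the regions on which the results turn. These are regions found in every library, ERCC1 region 4, found in 4 T24 and 0 T24R2 lists, and regions of ERCC6 and DDB2 described below. ERCC2 region 2, also found in every library, had no match within 50 nt of its median summit and is not shown. Each line gives the 21 bases around the DRACH match nearest to the median summit, read from the hg38 genome on the strand of the gene, with the 5 bases of the match in capitals. The summits of ERCC6 region 5 fall in separate groups on either side of its median. Its printed match lies between these groups and not within 50 nt of any summit. The exonic summits of ERCC1 region 2 also lie on either side of its match. Some summits of ERCC1 region 1, ERCC4 region 2, ERCC5 regions 1 and 2, ERCC6 regions 4 and 8 and XPC region 2 likewise lie more than 50 nt from the printed match.
ERCC1 region 1, chr19:45409644-45409664, minus strand: tgccaaggAAACCcccagtgt
ERCC1 region 2, chr19:45413564-45413584, minus strand: agaaccaaAGACCagacacag
ERCC1 region 4, chr19:45424256-45424276, minus strand: ctcgcacaGGACCgggaagag
ERCC4 region 1, chr16:13935372-13935392, plus strand: caaagaaaGAACCctcaaaaa
ERCC4 region 2, chr16:13948037-13948057, plus strand: aggagctgAAACAaagcaagc
ERCC5 region 1, chr13:102862432-102862452, plus strand: gtgatgaaGGACTtaaagtga
ERCC5 region 2, chr13:102875822-102875842, plus strand: ggtcctcgTGACCgccagatc
ERCC6 region 4, chr10:49505976-49505996, minus strand: agactgcaGGACAaagagaaa
ERCC6 region 5, chr10:49515629-49515649, minus strand: tctgtttcGAACTggtcttac
ERCC6 region 8, chr10:49524146-49524166, minus strand: attgatgaTGACTttttccca
XPC region 2, chr3:14158392-14158412, minus strand: catcgtaaGGACCcaagcttg
DDB2 region 2, chr11:47238153-47238173, plus strand: cccatgggGGACAcgctggcc
The matches at ERCC1 region 4, ERCC5 region 1, ERCC6 region 4, XPC region 2 and DDB2 region 2 begin with GGAC, the form of the consensus most often methylated, and the others carry other forms.

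Across all 188 member peaks, 174 (92.6%) had a DRACH match within 50 nt of the summit on the sense strand and 134 (71.3%) on the antisense strand. The shares among the 165758 exonic peaks of genes on 1 strand were 90.5% and 71.6%. The member peaks were thus close to all exonic peaks by this measure. The stricter letters GGAC stood near 28.7% of member summits against 47.9% of all exonic summits on the sense strand, and near 22.9% against 24.4% on the antisense strand. On the sense strand, ERCC4 had no GGAC match at any of its 21 summits and ERCC6 had one at 10 of 64, whereas XPC had one at 13 of 19 and ERCC2 at 15 of 26. ERCC1 had GGAC at 7 of 25 summits on the sense strand and at 13 on the antisense strand. Its DRACH matches stood at 19 and 22 of 25, and it was the only gene with more DRACH on the antisense strand. For GGAC, ERCC5 (3 against 7 of 20) and ERCC4 (0 against 1 of 21) also had more antisense matches, and the other genes fewer. Peaks at the same site in different libraries share a sequence, so these shares were not tested. A match is a description of the letters in the window and no match says nothing of whether the site is methylated.

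The 10 lists held between 17203 and 33120 peaks, and T24R2 replicate 5 was the longest. The lists give no read counts, so sequencing depth is unknown and a missing peak does not show that m6A is absent. The input libraries entered only as the background of peak calling, and transcript levels of the repair genes were not analysed here. Each library is a bulk sample, in which a site modified in a share of the cells and a site modified weakly in all of them cannot be told apart. The labels do not say whether replicates were separate cultures, so p-values measure only the spread between these samples. Of 13 urothelial marker genes 2 had an exonic peak in all 10 libraries and 7 in none, while GATA3 had one in all 5 T24 lists and in 0 of the T24R2 lists. Of 6 markers of other cell types 1, PECAM1, had a peak in all 10 libraries and 5 in none. Peaks do not measure expression, so these markers neither establish nor dispute the labelled cell type.

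Of the 10 genes, 8 had an exonic peak in at least 1 library and 6 of them, ERCC1, ERCC2, ERCC4, ERCC5, ERCC6 and XPC, had one in all 10. For comparison, 51.1% of the 20046 protein-coding genes had an exonic peak in any library and 27.5% had one in all 10. XPA and DDB1 had none. ERCC3 had a single peak, in T24 replicate 4. DDB2 had peaks in 3 libraries of each line. The number of member peaks was 15, 15, 24, 19 and 19 in T24 replicates 1 to 5 and 19, 16, 18, 20 and 23 in T24R2 replicates 1 to 5, so the lines overlapped. Per 1000 peaks of the list this came to 0.898 ± 0.144 in T24 and 0.746 ± 0.0442 in T24R2 (SD, n = 5), given as a description because the genes were chosen with results known.

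The genes carried different numbers of peaks. ERCC6, whose product is the ATPase that couples repair to stalled transcription, carried the most, with 6, 3, 9, 5 and 6 peaks in T24 and 7, 6, 7, 7 and 8 in T24R2. ERCC5, the nuclease that cuts on the 3' side of the lesion, carried exactly 2 peaks in each of the 10 libraries. ERCC4, the catalytic subunit of the nuclease that cuts on the 5' side, carried 2 in 9 libraries and 3 in T24 replicate 5. ERCC2, a helicase of TFIIH, carried 3, 1, 2, 2 and 2 peaks in T24 and 2, 3, 3, 4 and 4 in T24R2. ERCC1, the partner that positions ERCC4 on DNA, carried 1, 4, 4, 2 and 4 in T24 and 2 in each T24R2 library. The T24 and T24R2 counts overlapped for every gene with a peak, where 5.92% of all genes had counts that did not overlap.

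**Figure D1:**
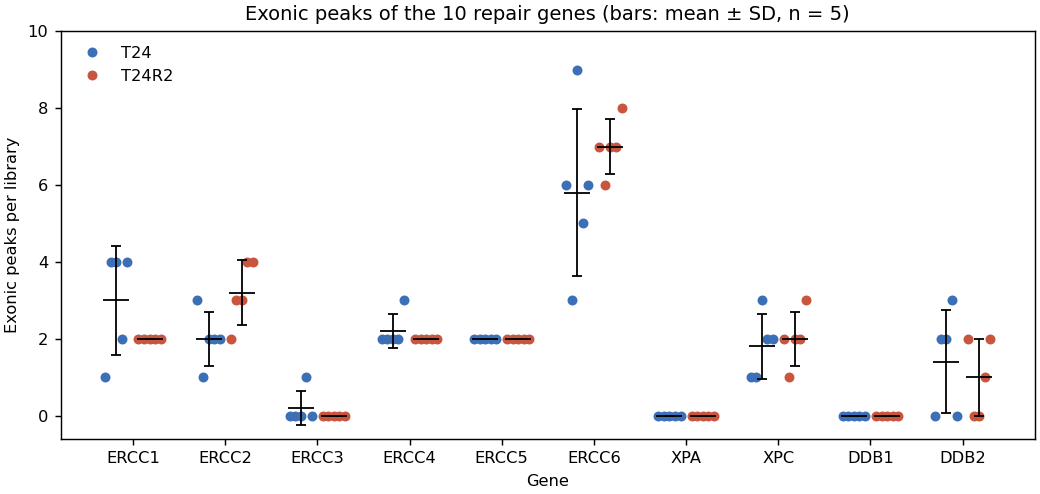
Number of exonic peaks of each repair gene (horizontal axis) in each IP library (vertical axis, peaks per library), with T24 libraries as blue points, T24R2 libraries as red points and black bars for the mean ± SD of 5 libraries. ERCC6 stands highest at 3 to 9 peaks, ERCC5 is at 2 in every library, and XPA and DDB1 are at 0.

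No repair gene passed the test for a difference in peak number. The difference was largest for ERCC2, with 2.00 ± 0.707 peaks in T24 against 3.20 ± 0.837 in the resistant line (SD, n = 5; two-sided exact permutation p = 0.103, Benjamini-Hochberg adjusted p = 0.662 over 13976 genes), with ERCC6 equal to it in size, 5.80 ± 2.17 against 7.0 ± 0.707 (exact permutation p = 0.381). ERCC1 went the other way, from 3.00 ± 1.41 to 2.00 ± 0, since every T24R2 library had 2 (exact permutation p = 0.167, adjusted p = 0.681). A number of peaks is not a number of sites. ERCC1 region 1 held 2 peaks in T24 replicates 2, 3 and 5 and in T24R2 replicate 3, and 1 in each other library. It was 1 peak of 1595 nt in T24R2 replicate 2 but peaks of 198 and 709 nt in T24 replicate 2. None of the 8 genes tested reached an unadjusted p of 0.05, where 13.9% of all genes did (10.4% with more and 3.53% with fewer peaks in T24R2), and none of the 13976 genes reached an adjusted p of 0.05. ERCC3, ERCC4 and ERCC5 could not reach 0.05 here, since at most 1 library differed from the others in peak number. ERCC1 reached an unadjusted exact permutation p of 0.0476 in this test when the same number of peaks was taken from every list, and ERCC2, ERCC1 and ERCC6 each fell under 0.05 when particular libraries were left out, without T24 replicate 1 for ERCC1 and ERCC2, without T24R2 replicate 1 for ERCC2 and without T24 replicate 3 for ERCC6. By Fisher's exact test of libraries with and without an exonic peak, all 8 genes had p = 1, against 8.94% of all genes with p under 0.05. The 6 genes with a peak in all 10 libraries, and ERCC3 with its single peak, could not reach 0.05. Only DDB2 could, so this result says little about the genes as a set.

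Along the transcripts, the member peaks lay mostly in coding sequence. On the Ensembl canonical transcripts, 111 of 152 member peaks (73.0%) had their summit in the coding sequence, 41 (27%) in the 3'UTR and 0 in the 5'UTR, beside 60.2%, 32.7% and 7.11% of all 145243 such peaks of protein-coding genes. Summits within 200 nt of the end of the coding sequence made up 23.0% of member peaks and 23.5% of all peaks, and summits in exons of at least 400 nt made up 82.9% and 81.2%. The genes split by class. All summits of ERCC3, ERCC4, ERCC5, ERCC6 and XPC on these transcripts were coding, whereas 23 of 26 ERCC2 summits and 12 of 14 ERCC1 summits were in the 3'UTR, and DDB2 had 6 of each.

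**Figure D2:**
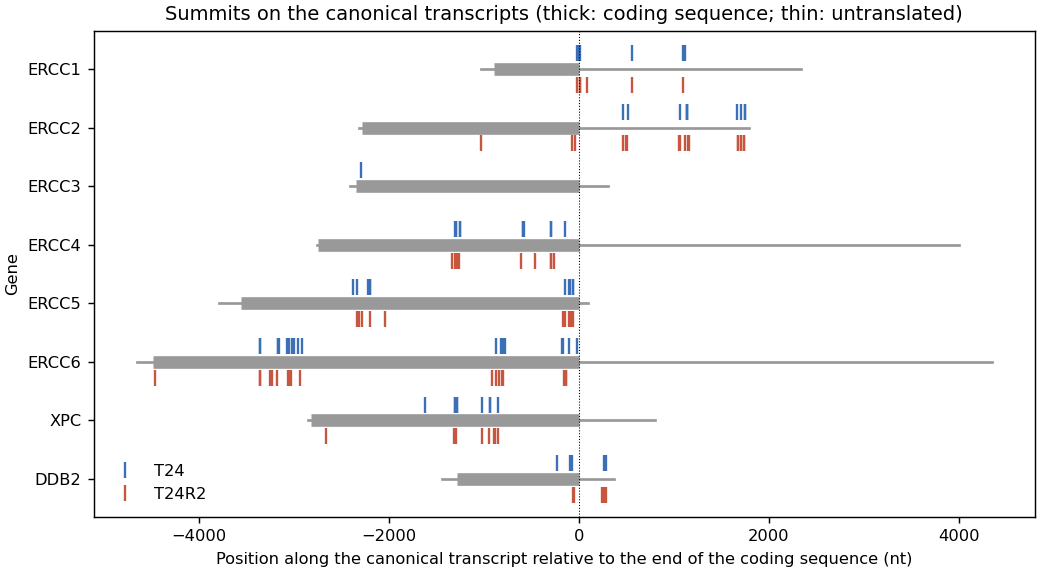
Summits of all member peaks on the canonical transcript of each gene (horizontal axis, nt from the end of the coding sequence, the thick bar being coding and the thin line untranslated), with T24 summits as blue ticks above and T24R2 summits as red ticks below. ERCC1 and ERCC2 summits sit mostly to the right of the end of the coding sequence, those of ERCC4, ERCC5, ERCC6 and XPC to the left of it, and ticks of both lines gather at the same places.

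Among the damage sensors, XPC carried 3 regions, all coding. Region 2 (chr3:14158029-14158845) lay in exon 9 of 16, which is 882 nt long, and was called in all 10 libraries. Its percentiles were 36.2, 1.41, 97.3, 44.6 and 75.3 in T24 replicates 1 to 5 and 39.1, 63.0, 93.6, 39.7 and 86.6 in T24R2, so that T24 replicate 2 was near the bottom of its list and the lines overlapped over most of their range. Region 1 (chr3:14156385-14156638), in the neighbouring exon 10 of 161 nt, was called in 3 T24 and 5 T24R2 libraries, with p = 0.444 by Fisher's exact test. Region 3 was called in T24R2 replicate 5 alone. DDB2, the damage-binding partner of DDB1, had its peaks around the end of its coding sequence. DDB2 region 2 (chr11:47238111-47238394) was called in 4 libraries of each line over exon 9, which is only 46 nt long, and 5 of its peaks had their summit inside that exon. DDB2 region 3 (chr11:47238895-47239158) was called in 3 libraries of each line, 249 to 291 nt into the 3'UTR. T24R2 replicate 3 and T24 replicate 5 had no DDB2 peak at either place.

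For ERCC6, 9 regions were spread along the gene. On the canonical transcript they lay in exons 2, 5, 6, 7, 18 and 21 of 21. Exon 5 (745 nt) held region 8 (chr10:49524042-49524703), the only ERCC6 region called in all 10 libraries, which reached a fold enrichment of 26.5 and the 99.6th percentile in T24 replicate 4. Its percentiles were 76.0, 44.3, 26.2, 99.6 and 70.6 in T24 and 57.4, 93.7, 48.5, 90.5 and 31.0 in T24R2, which overlap throughout. Regions 1 and 2, in the last exon and in exon 18 (708 nt), were each called in 4 T24 and 5 T24R2 libraries, and T24 replicate 2 was the library without them.

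A separate group of ERCC6 peaks lay outside the exons of the canonical transcript. Regions 5, 6 and 7 lay on the last exon (1924 nt) of ENST00000447839, a coding transcript that joins the first ERCC6 exons to an exon derived from the piggyBac element PGBD3, and this exon is not part of the canonical ERCC6 transcript. In the annotation 4 of the 21 ERCC6 transcripts have an exon at these summits, and the lists do not show which of them the peaks came from. These 3 regions accounted for 23 of the 64 ERCC6 peaks. Region 5 (chr10:49515329-49516111) was called in 4 T24 and 5 T24R2 libraries at percentiles of 26.5, 74.6, 56.9 and 62.6 in T24 replicates 1, 2, 3 and 5 and 82.4, 71.2, 21.2, 61.4 and 60.7 in T24R2. Regions 6 and 7 were called in 3 and 2 T24 libraries and in 4 T24R2 libraries each. Region 5 was thus in as many lists as regions 1, 2 and 4 of the canonical transcript, and no region of the PGBD3 exon passed the test of presence (the lowest p by Fisher's exact test was 0.524).

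ERCC6 region 4 (chr10:49505912-49506171) had 7 of its 9 summits in canonical exon 6 (129 nt) and the other 2 in a longer exon of a noncoding transcript. It was at 52.7, 27.2, 39.3 and 52.6 in T24 replicates 2 to 5, absent from T24 replicate 1, and at 81.5, 87.3, 49.3, 90.0 and 65.4 in T24R2. The T24R2 values were mostly the higher, but the lowest of them, 49.3, lay within the T24 range. The highest of them, 87.3 and 90.0 in replicates 2 and 4, belong to the 2 peaks whose summits lay outside canonical exon 6. With the absent library set to 0, an alternative chosen after seeing the data, the means were 34.4 and 74.7, a difference of 40.3 percentile points (two-sided exact permutation p = 0.0238, adjusted p = 0.253 over 43676 regions). By that measure 2 of the 28 member regions had an unadjusted p under 0.05, this one and ERCC1 region 4, against 15.2% of all regions.

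Of the TFIIH helicases, ERCC2 carried all but 1 of its peaks in the long last exon (1885 nt). Region 2 (chr19:45350339-45351276) was called in all 10 libraries with summits 462 to 1155 nt past the end of the coding sequence, and region 1 (chr19:45349838-45350050) in 4 T24 and 5 T24R2 libraries at 1669 to 1753 nt, close to the transcript's 3' end. Region 1 was at percentiles 66.3, 83.7, 62.1 and 80.7 in T24 replicates 1, 3, 4 and 5 and at 8.84, 22.2, 21.9, 63.1 and 74.7 in T24R2. The T24 values were high and close together, and the T24R2 values ran from low to high and overlapped them, with means of 73.2 ± 10.6 (SD, n = 4) and 38.2 ± 28.9 (SD, n = 5). With the absent library set to 0, also chosen after seeing the data, they differed by -20.4 points (exact permutation p = 0.381). Region 2 was at 56.2, 3.63, 33.7, 32.7 and 5.17 in T24 and 10.2, 43.6, 30.1, 49.1 and 2.93 in T24R2, each line running from the bottom to the middle of its lists, and no DRACH match lay within 50 nt of its median summit. ERCC2 regions 3 and 4 were called only in T24R2, in 2 libraries and 1 library, at percentiles of at most 5.27. The single ERCC3 peak (chr2:127293684-127293779) lay in exon 2 at percentile 4.81.

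Among the nucleases, ERCC4 carried 2 coding regions that both appeared in all 10 lists and ranked highest of the genes, with a median percentile of 63.3 over 21 peaks. ERCC4 region 1 (chr16:13935119-13935508), in exon 8 of 11 (598 nt), was at 46.1, 44.1, 48.3, 97.9 and 48.5 in T24 and at 93.7, 74.8, 91.3, 60.9 and 37.9 in T24R2. T24 replicate 4 was the highest of all 10 libraries while the other T24 libraries were close together, and the lines overlapped. ERCC4 region 2 (chr16:13947602-13948479), in the coding part of the last exon, was at 61.1, 76.1, 82.4, 75.5 and 47.1 in T24 and 63.3, 68.9, 60.2, 91.1 and 96.0 in T24R2. Transcripts of ENSG00000262732 also cover region 1, and the lists carry no strand, so peaks where genes overlap cannot be assigned to either.

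ERCC5 also carried 2 coding regions found in all 10 lists, region 1 (chr13:102862130-102863074) in exon 8 of 15, which is 1074 nt long, and region 2 (chr13:102875332-102875942) in the last exon, where its summits lay 3624 to 3737 nt into the 3888-nt transcript. Region 1 was at 62.3, 45.4, 89.8, 57.6 and 84.0 in T24 and at 53.8, 26.0, 31.7, 42.3 and 94.6 in T24R2, where replicate 5 alone was above the others. Region 2 was at 29.1, 21.6, 33.4, 49.9 and 17.6 in T24 and at 33.1, 56.3, 17.4, 49.1 and 65.8 in T24R2. The 2 regions of the same transcript thus had opposite signs, with means of 67.8 ± 18.6 and 49.7 ± 27.3 for region 1 and 30.3 ± 12.6 and 44.3 ± 19.2 for region 2 (SD, n = 5 per line), and neither difference passed the test below. Both regions also lie in exons of the readthrough transcript BIVM-ERCC5.

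By fold enrichment, the ERCC1 peaks ranked low among those of the repair genes. The median percentile of its 25 peaks was 13.4, below ERCC2 (22.2), XPC (39.7), ERCC5 (47.3), DDB2 (50.4), ERCC6 (52.7) and ERCC4 (63.3), and above only the single ERCC3 peak. All member peaks together had a median of 46.3 beside 50.5 for all exonic peaks. Within libraries, the median percentile of ERCC1 peaks was below that of the other repair genes in 9 of 10 libraries, at 15.0 ± 12.7 against 50.7 ± 5.15 in T24 and 23.6 ± 21.8 against 47.3 ± 11.1 in T24R2 (SD, n = 5). The exception was T24R2 replicate 5, at 61.7 against 42.4. By its best peak, ERCC1 ranked last among the repair genes with a peak in 5 of the 10 libraries, and ERCC2, the nearest gene by median, was below it in T24 replicate 2 (3.63 against 24.7), T24R2 replicate 1 (10.2 against 17.7) and T24R2 replicate 5 (74.7 against 84.8). By percentiles of −log10 q, a setting chosen after seeing the data, the difference in medians was -20.6 points. The highest peaks of ERCC1 region 1 then stood at 16.0, 36.5, 93.9, 63.4 and 79.2 in T24 replicates 1 to 5. In T24R2 they stood at 80.5, 87.0, 74.1, 85.3 and 96.9, so this region ranked low by fold but mostly high by −log10 q. No test was made of this contrast between genes.

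The ERCC1 peaks came from 4 regions, of which 1 lies on the canonical transcript. Region 1 (chr19:45408200-45409797), in the last exon (2392 nt), held 14 summits, 8 of them within 200 nt of the end of the coding sequence and the rest 560 to 1121 nt into the 3'UTR. Its percentiles were 0.752, 20.6, 73.3, 8.19 and 37.2 in T24 and 17.7, 34.7, 15.7, 32.4 and 84.8 in T24R2. One library of each line, T24 replicate 3 and T24R2 replicate 5, was far above the rest, and the lines overlapped. The summits behind these values lay at different places. Relative to the end of the coding sequence, that of T24 replicate 3 was at -18 nt and that of T24R2 replicate 5 at 563 nt. That of T24 replicate 2 was at 1121 nt, so the values of region 1 do not all compare a single site. All 14 summits also lie in an exon of POLR1G, a gene on the opposite strand that encodes an RNA polymerase I subunit, so without strand these peaks cannot be told apart between ERCC1 and POLR1G. ERCC1 region 2 (chr19:45412409-45413740) lay on an alternative last exon (312 nt) of ENST00000013807. It was overlapped by a peak in all 10 libraries, but from different places. A summit lay in that exon in 2 T24 and 4 T24R2 libraries, and in the adjoining intron in all 5 T24 libraries and in T24R2 replicates 3 and 5. Its percentiles were 26.2, 40.6, 61.2, 45.3 and 73.6 in T24 and 3.65, 2.63, 52.7, 4.37 and 67.6 in T24R2, where 3 libraries were near the bottom of their lists and the others were within the T24 range. All 5 T24 values and the 2 high T24R2 values are those of peaks with an intronic summit, and the 3 low ones belong to peaks with an exonic summit, so the values of this region do not compare one site between the lines.

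ERCC1 region 4 (chr19:45424222-45424348) was the member region with the clearest difference in presence. It was called in T24 replicates 2 to 5, at percentiles of 13.4, 8.32, 21.7 and 7.27 and fold enrichments of 4.14, 3.86, 4.86 and 3.54, and in 0 of the 5 T24R2 libraries (two-sided Fisher's exact p = 0.0476, Benjamini-Hochberg adjusted p = 0.517 over 43676 regions). All 4 peaks thus ranked low in their lists. Their summits fell within 9 bases, at chr19:45424268-45424276, and 351 to 359 nt upstream of the canonical ERCC1 start, on the first exon of 1 of the 18 annotated ERCC1 transcripts, ENST00000589165. The region is therefore transcribed ERCC1 sequence only by that annotation, in its 5'UTR. ERCC1 region 3, between it and the canonical start, was called in T24 replicate 3 alone, at percentile 60.9. With peaks of a fold enrichment of at least 4 the count was no longer 4 against 0 and the p was 0.444. The −log10 q of its 4 peaks was 5.47 to 9.33, so at a minimum of 10 the region was in no list, and with canonical exons alone it was not a member.

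**Figure D3:**
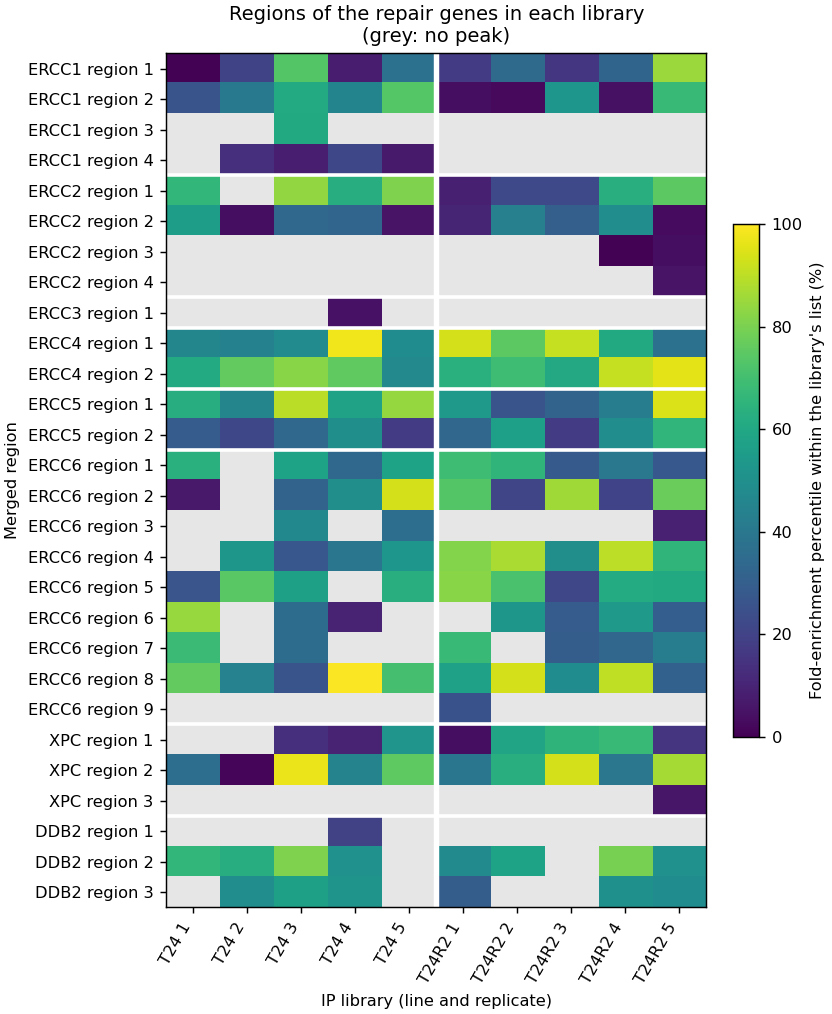
The 28 regions of the repair genes (vertical axis, grouped by gene and numbered by coordinate) in the 5 T24 and 5 T24R2 libraries (horizontal axis), coloured by fold-enrichment percentile within the library's list (%), with grey where no peak was called. ERCC1 region 4 is coloured in T24 replicates 2 to 5 and grey in all T24R2 libraries, while 9 regions are coloured in all 10 libraries.

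Over all 28 member regions, 9 were called in all 10 libraries, 5 in 9 libraries and 6 in a single library. In all lists together 21.9% of regions were called in every library. More T24R2 than T24 libraries held 12 of the member regions, fewer held 5 and equal numbers held 11. The T24R2 lists were longer on average, with 25837 ± 4203 peaks against 20456 ± 2082 in T24 (SD, n = 5). The matching counts over all regions are not given here, so these counts are not read as a trait of the repair genes. ERCC1 region 4 was the only one of the 28 to pass 0.05 by Fisher's exact test before adjustment, where 9.21% of all regions reached that p, 7.11% with more T24R2 libraries and 2.09% with more T24 libraries. No region of the series reached an adjusted p of 0.05 in this test, in which 5 against 0 libraries gives 0.00794, and only regions called in 4 to 6 libraries, 3 of the 28, could reach an unadjusted p of 0.05. The lowest adjusted p of the series by this test was 0.195. The paper tested read counts in peaks of the same lines and did report differentially methylated peaks. The lack of calls here therefore does not show that m6A is equal between the lines.

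None of the 9 regions called in every library passed the test for a difference in fold-enrichment percentile. Percentiles were higher in T24R2 for 7 of them and lower for 2, with a median difference of 7.48 percentile points beside 4.84 over all 9577 regions called in every library. Of all these regions, 35.6% were lower in T24R2. The largest differences were -23.2 points for ERCC1 region 2, where the summits differ as described (two-sided exact permutation p = 0.190, adjusted p = 0.581), -18.2 for ERCC5 region 1 (exact permutation p = 0.246), 14.8 for ERCC4 region 1 (exact permutation p = 0.341) and 14 for ERCC5 region 2 (exact permutation p = 0.238). XPC region 2 differed by 13.4 points (exact permutation p = 0.524) and ERCC4 region 2 by 7.48 (exact permutation p = 0.444). ERCC1 region 1, where the summits also differ as described, differed by 9.05 (exact permutation p = 0.579). Summits were spread within other regions too, over transcript positions 2149 to 2614 for ERCC4 region 2 and 1229 to 1839 for XPC region 2. Those of ERCC6 region 8 ran from 1298 to 1493, and those of ERCC2 region 2 from 462 to 1155 nt past the coding sequence. A region's difference is thus not always that of a single site. ERCC2 region 2 and ERCC6 region 8 differed by 0.936 and 0.878 points, and these were the smallest of the 9. The T24 and T24R2 values overlapped in all 9, where 4.5% of the regions tested did not overlap. None reached an unadjusted p of 0.05, against 13.9% of all regions tested, 10.9% higher and 3.04% lower in T24R2, and no region of the series reached an adjusted p of 0.05. ERCC5 region 1 passed 0.05 only when T24R2 replicate 5 was left out, at a difference of -29.4 points (exact permutation p = 0.0397, adjusted p = 0.376).

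**Figure D4:**
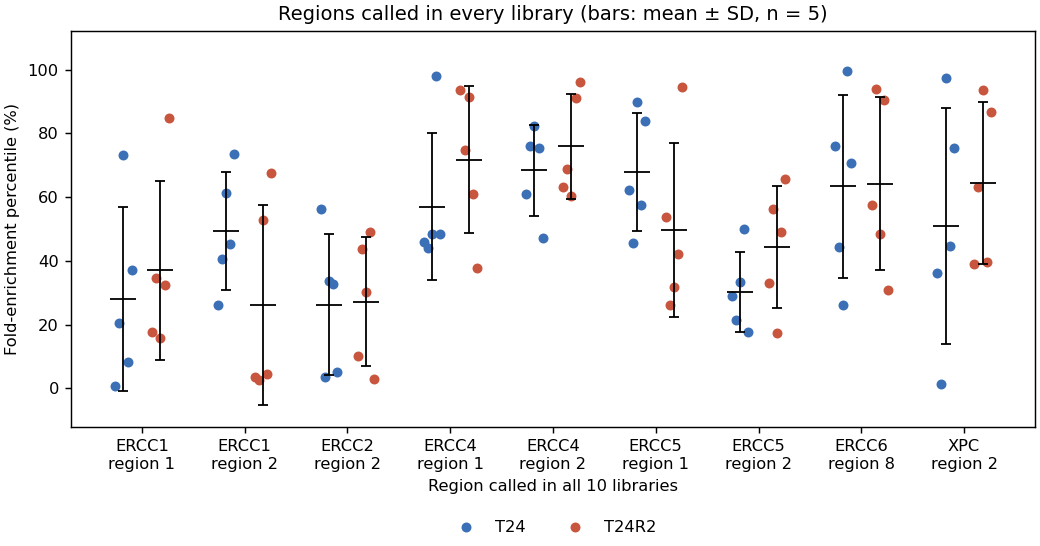
Fold-enrichment percentile (vertical axis, %) of the 9 member regions called in all 10 libraries (horizontal axis), with T24 libraries in blue, T24R2 libraries in red and black bars for the mean ± SD of 5 libraries. The points of both lines overlap in every region, and the means are lower in T24R2 for ERCC1 region 2 and ERCC5 region 1.

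The genes without an exonic peak, and the gene bodies around the exons, were examined last. XPA, the damage-checking scaffold, had no summit in its body at all. DDB1, the adaptor that links DDB2 to its ubiquitin ligase, had 10 summits in its introns, all in T24R2, with 2, 1, 2, 2 and 3 in replicates 1 to 5 against 0 in every T24 library. Of these 10 summits, 9 lie in an exon of TKFC, a metabolic kinase gene that overlaps DDB1, in regions chr11:61333944-61334220 (in 4 T24R2 lists and 0 T24 lists, p = 0.0476 by Fisher's exact test) and chr11:61334330-61334649 (5 and 0 lists, p = 0.00794, adjusted p = 0.195). They are not member peaks, were named after their values were seen, and can belong to TKFC. The body of ERCC1 in the annotation reaches across FOSB, and 46 of its 53 summits outside ERCC1 exons lie in FOSB exons.

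A wider list of 45 further genes of the pathway, including the remaining TFIIH subunits, the replication factors that fill the gap and the ligases, was counted in the same way. Of these, 24 had an exonic peak, 9 had one in all 10 libraries and 21 had none. By Fisher's exact test, 5 of their 56 regions passed 0.05 before adjustment, a share close to the 9.21% of all regions, and none after it (adjusted p = 0.517 for each of the 5). They are named by the rule for named genes, as a description. A region of GTF2H1, a TFIIH subunit (chr11:18365884-18366087), and 1 of POLE, the catalytic subunit of DNA polymerase epsilon (chr12:132624465-132624743), were called in 0 T24 and 4 T24R2 libraries. UVSSA, which acts with ERCC6 at stalled polymerase, had 1 region called in 1 T24 and 5 T24R2 libraries (chr4:1395684-1395867) and another in 4 T24 and 0 T24R2 libraries (chr4:1384296-1384597). CUL4A, the scaffold of the ubiquitin ligase that holds DDB1, had a region called in 5 T24 libraries and 1 T24R2 library (chr13:113229801-113230068). Among 14 regions of the wider list called in every library, 1 had an unadjusted p under 0.05, in SLX4, a scaffold for structure-specific nucleases including ERCC4-ERCC1 (chr16:3590665-3591327, 28.2 ± 20.4 in T24 and 61.1 ± 13.8 in T24R2, SD, n = 5; exact permutation p = 0.0159, adjusted p = 0.231), where 13.9% of all regions tested did. The SLX4 region lost this p with equal numbers of peaks per list, −log10 q of at least 5 or 10, fold of at least 4 and percentiles of −log10 q. The median difference over these 14 regions was 8.36 percentile points beside 4.84 over all regions.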

How the data were processed

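MeRIP-seq peak lists of 10 IP libraries (5 T24 and 5 T24R2) were used. Per the methods of the study and the labels, the authors aligned reads to hg38 (GRCh38) with STAR (version 2.7.0), kept uniquely mapped reads without duplicates with SAMtools (version 1.10) and called IP over input peaks in each library with MACS2 (version 3.0.0a6). Each deposited peak carries a score (10 times the −log10 q as a whole number), a fold enrichment (a ratio of IP over local input) and −log10 p- and q-values, all as deposited by the authors. Replicates were not pooled, and the authors' merged list gave the 43676 regions. Read counts were not used here, so depth is unknown.

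Each summit was placed on exons of GENCODE 44. A library had a region when any of its peaks overlapped it, and a region's value was the highest fold-enrichment percentile among those peaks, also where the summit lay outside the exon. Presence (Fisher's exact test, 5 against 5 libraries) was tested for all regions and genes, and fold-enrichment percentile and peak number (exact permutation over the 252 assignments of libraries to lines, on mean differences) for regions called in every library and for all genes. All tests were two-sided with Benjamini-Hochberg adjustment over everything tested, the smallest possible p was 0.00794, and the code was tested on simulated data. DRACH and GGAC were searched within 50 nt of the summit on both strands. The 10 genes, the wider list, the markers and the rule for named genes (all 10 genes, and genes of the wider list with a region at unadjusted Fisher's exact p under 0.05 or permutation p under 0.05 after adjustment, at most 10) were chosen with earlier results of these data known. SLX4 was named outside this rule after its values were seen. Alternatives were the same number of peaks (17203) per library, −log10 q of at least 5 or 10, fold of at least 4, cover of 50% of the region, canonical exons alone, percentile of −log10 q, log2 fold, omission of each library in turn, a replicate block and a 25-nt motif window. Python 3.11.15, SciPy 1.17.1, pandas 2.3.3 and pysam 0.24.0 were used.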

Additional observations from a re-analysis of the deposited data

Results flagged for a closer look

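Among 37 groups of 5 libraries whose values were not all equal, 5 held a library far from the other 4. Chance gives about 1 in 20 for continuous values, a rate that does not apply to the ERCC3 and ERCC4 peak numbers below, where the other 4 libraries are tied and any difference of 1 peak stands out. T24R2 replicate 5 had 33120 peaks in its list against at most 25603 in the other T24R2 libraries, and its ERCC1 region 1 was at percentile 84.8 against at most 34.7. T24 replicate 4 had ERCC4 region 1 at percentile 97.9 against at most 48.5, and it was the library with the ERCC3 peak (1 against 0). T24 replicate 5 had 3 ERCC4 peaks against 2.

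Outside the peaks counted for the repair genes, the body of DDB1 held 2 regions that were called in 4 and 5 T24R2 libraries and in 0 T24 libraries. Both lie in exons of TKFC, and the lists carry no strand.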

How the results depend on the processing

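Presence of a member region had 1 call (ERCC1 region 4), and 0 with a fold of at least 4, with canonical exons alone or with the replicate block, and 3 with a cover of 50% (ERCC1 region 4 and ERCC6 regions 1 and 5). At −log10 q of at least 10 there was also 1 call, but of ERCC6 region 4 (80 points, p = 0.0476 by Fisher's exact test), and ERCC1 region 4 was in no list. The block allows no p below 0.0625, so it could make no call, and it left 0 calls everywhere. Replicate numbers did not pair the libraries (correlations of -0.0304 to 0.111), and of 5 T24 libraries only replicate 5 correlated best with its own number. The percentile test had 0 calls, 0 to 1 with a library left out (ERCC5 region 1 without T24R2 replicate 5, and ERCC6 region 4 without T24 replicate 1, where it is in every list) and 2 with absent libraries at 0, chosen after seeing the data. Peak number had 0 calls, 1 (ERCC1) with equal lists and 0 to 2 with a library left out. For the wider list, presence had 5 calls, 3 with equal lists, 3 at −log10 q of at least 5, 2 at 10, 8 with a cover of 50% and 0 with the replicate block; the percentile test had 1 call, 0 with equal lists, −log10 q of at least 5 or 10, fold of at least 4, percentile of −log10 q and the replicate block, 1 to 2 with a library left out and 5 with absent libraries at 0. DRACH stood near 70.2% of member summits in the 25-nt window, beside 71.7% of all exonic summits.

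ERCC6 region 8 became -7.83 points with equal lists, -0.10 as log2 fold and -8.42 to 9.94 with a library left out, ERCC2 region 2 became -4.72 to 8.41 and ERCC1 region 1 -2.89 to 20.4. ERCC6 region 7 presence became -20 percentage points with equal lists, ERCC1 peak number 0.2 at −log10 q of at least 10 and XPC peak number -0.05 to 0.5 with a library left out. Of 854 single values under all alternatives, 14 changed sign, 9 newly passed the threshold and 2 lost it, and some small differences in presence fell to 0. The difference in median percentile between ERCC1 and the other genes was -35.7 points, -40.8 to -33.2 with a library left out and, in settings chosen after seeing the data, as little as -20.6 with percentiles of −log10 q. Causes of these changes were not tested.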
